A study of Mus musculus with 12 samples.

Results

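The 38 genes described here encode the enzymes that load amino acids onto transfer RNA, and 2 scaffold proteins that hold some of them together. They were chosen by name from the 24062 gene symbols of the count data. Of the 38, 20 encode cytosolic aminoacyl-tRNA synthetases or their subunits, 16 encode mitochondrial synthetases, and Aimp1 and Aimp2 encode the scaffold proteins. Wars, the cytosolic enzyme that charges tryptophan (Trp), was compared with all the others because the study removed Trp from the diet. All 38 genes were found and passed the low-count filter of every comparison, and the lowest count of any of them in a library was 69 reads, for Mars2 in a control xenograft.

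Poly(A) RNA was sequenced from 12 mice, 3 per group. In 6 of these mice the tissue was liver carrying MYC-driven tumors (MYC-ON livers), from FVB males with the transgenes LAP-tTA and TRE-MYC, in which a hepatocyte promoter drives the activator of a MYC transgene once doxycycline is withdrawn at birth. The labels give 45 days of age for MYC overexpression males, in a passage on their comparison with wild-type mice, and no other age for the diet groups. The other 6 libraries came from xenografts of HCC53N, 1 line of mouse liver cancer cells that the labels describe as MYC-ON, p53 knockout and overexpressing mutant NRAS. They were injected under the skin of female NOD SCID hosts (NOD-SKID in the labels), which lack functional T and B cells. In both models 3 mice were fed the complete control diet (livers 101, 102 and 103, xenografts 40, 41 and 43) and 3 were fed the No-Trp diet for 21 days (livers 105, 107 and 108, xenografts 35, 36 and 37). The study names a MYC transgene for the livers only, and reports more MYC in HCC53N cells than in wild-type liver. The models therefore differ in MYC as well, and no comparison below includes wild-type liver.

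The libraries held 14660963 to 26085349 reads on genes. Of the 12 hepatocyte markers listed, 11 had 10 or more reads in every library, with a summed level of 9888 to 40653 CPM (read counts scaled to a common library total) in control livers. The sum was 54503 to 132700 CPM in No-Trp livers and 337 to 894 CPM in xenografts. The other marker, Ass1, had at most 5 reads in any library, and whether that is its level in the tissue was not tested. The 5 cholangiocyte markers summed to 2972 to 10764 CPM in xenografts and 86.7 to 166 CPM in livers. In xenografts Spp1 held most of that sum, with 58594 to 203149 reads, and Krt19, the next marker, had 2778 to 16017 reads. Both models hold other cell types, and in bulk tissue a lower value can come from fewer cells of a type or from less RNA per cell, which cannot be told apart. The files of 4 libraries (livers 101 and 108, xenografts 41 and 43) carry a resubmission mark. The file of control xenograft 40 is named in another pattern than the other xenografts, and only the labels give its diet.

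Each aminoacyl-tRNA synthetase joins a single kind of amino acid to the tRNAs that read its codons, and translation in the cytosol and in mitochondria draws on largely separate sets of enzymes. In mammals, several cytosolic synthetases sit in a multi-synthetase complex built on the scaffold proteins, while the others, Wars among them, act outside it. Many cytosolic synthetase genes are known targets of ATF4, the transcription factor of the amino acid response, many growth genes including some synthetases are known MYC targets, and Wars is also known as an interferon-γ-induced gene.

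RefSeq promoter sequence (GRCm38.p6, 250 bases before to 50 after the start of transcription) was at hand for 28 of the 38 genes, Wars not among them, and was read for 4 short motifs on both strands. The C/EBP-ATF element TGATGNAA, a sequence type that ATF4 can bind, lay in 5 of the 28 promoters (17.9%), those of Aars, Gars, Iars, Tars and Yars, and in 4.51% of all 27025 promoters in the same table. The E-box CACGTG, which MYC-MAX dimers can bind, lay in 5 of 28 (17.9%), those of Aars, Farsb, Iars, Tars and Ears2, and in 8.09% of all promoters. Aars, Iars and Tars held both, and the motifs did not overlap. The gamma-activated site TTCNNNGAA lay in 3 of 28 (10.7%, against 9.55% of all) and the interferon-stimulated response element in 1 of 28 (3.57%, against 3.99%). The 5 promoters with the C/EBP-ATF element are shown, with that of Farsb, a gene whose diet difference was not the same in both models. Capitals mark C/EBP-ATF elements, written as TGATGNAA or its reverse complement, and E-boxes, and each sequence is given 5′ to 3′ along the gene's own strand.
Aars (chr8:111033669-111033871, plus strand, charges alanine): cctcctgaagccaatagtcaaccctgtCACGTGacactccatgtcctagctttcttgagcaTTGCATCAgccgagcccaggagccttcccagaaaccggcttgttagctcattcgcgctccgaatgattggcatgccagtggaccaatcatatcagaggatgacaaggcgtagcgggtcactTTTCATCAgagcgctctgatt
Gars (chr6:55037944-55038005, plus strand, charges glycine): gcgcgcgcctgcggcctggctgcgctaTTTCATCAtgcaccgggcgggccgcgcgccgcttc
Iars (chr13:49682034-49682159, plus strand, charges isoleucine): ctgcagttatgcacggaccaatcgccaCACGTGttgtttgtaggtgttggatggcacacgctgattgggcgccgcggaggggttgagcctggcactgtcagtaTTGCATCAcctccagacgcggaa
Tars (chr15:11399629-11399700, minus strand, charges threonine): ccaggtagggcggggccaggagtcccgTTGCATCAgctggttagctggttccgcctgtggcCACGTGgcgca
Yars (chr4:129189879-129189932, plus strand, charges tyrosine): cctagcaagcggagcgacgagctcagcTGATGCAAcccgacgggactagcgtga
Farsb (chr1:78488904-78488963, minus strand, β subunit of the enzyme that charges phenylalanine): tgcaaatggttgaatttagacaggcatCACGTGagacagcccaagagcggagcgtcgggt
A match is a run of letters and not a measured binding site.

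In MYC-ON livers, most synthetase genes were lower in the mice fed No-Trp than in those fed the control diet. Of the 38 genes, 33 had a log2 fold change below 0, as did 50.2% of the 14122 genes tested, and 5 had one above 0, as did 49.8%. The median was −0.47, while that of all genes tested was −0.0031. A gene was called when its adjusted p from edgeR's quasi-likelihood test was at most 0.05, and the study's stricter threshold also asks for a log2 fold change that is 1 or more in size. By adjusted p alone, 9 of 38 were lower and 0 higher, and 12% of all genes tested were lower by that rule and 13.3% higher. Of the 38, 2 were higher and 13 lower at an unadjusted p under 0.05, as were 2988 and 2913 of the 14122 genes. DESeq2 called 1 higher and 13 lower, against 12.9% and 12.5% of the 18842 genes it tested. By both thresholds, 4 of 38 were lower (Vars, Yars2, Aimp2 and Mars2), against 7.27% of all genes, and 0 higher, against 9.28%. The plot of all diet differences shows the livers shifted to the left of 0 in each subset.

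**Figure D1:**
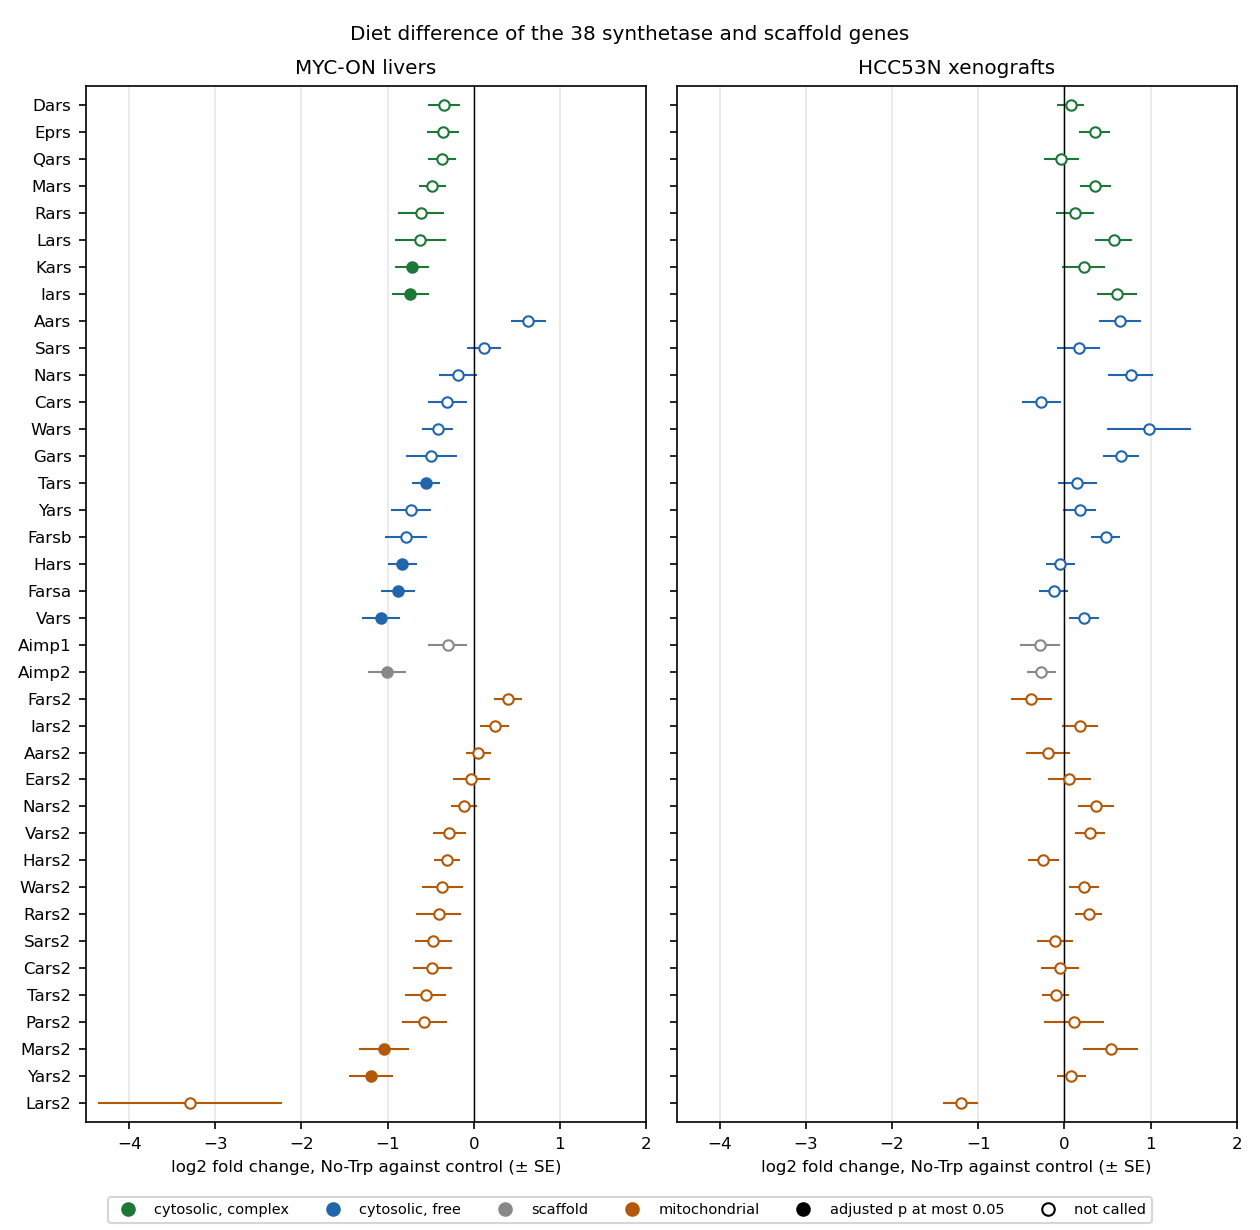
Log2 fold change of the No-Trp against the control diet (x axis) for each of the 38 genes (y axis) in MYC-ON livers (left) and HCC53N xenografts (right), from edgeR with 3 mice per group. Bars are standard errors, colours are the subsets, and filled points have an adjusted p of at most 0.05, which 9 genes have in livers and 0 in xenografts.

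Vars, which charges valine, stood at 313, 281 and 350 CPM in control livers 101, 102 and 103 and at 170, 107 and 165 CPM in No-Trp livers 105, 107 and 108. The groups did not overlap, and the fit gave a log2 fold change of −1.07 ± 0.22 (SE) with an adjusted p of 0.023. Aimp2, a scaffold protein of the complex, stood at 90.0, 61.7 and 81.0 CPM on the control diet and at 38.7, 29.8 and 45.8 CPM on the No-Trp diet. Here too every No-Trp liver lay below every control liver, with a log2 fold change of −1.01 ± 0.22 (SE, adjusted p = 0.0247).

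Both mitochondrial genes of the 4 charge amino acids for translation inside the organelle. Yars2, for tyrosine, stood at 74.2, 74.0 and 81.5 CPM in control livers and at 33.7, 21.6 and 43.7 CPM in No-Trp livers. Mars2, for methionine, stood at 33.2, 23.9 and 36.4 CPM in control livers and at 17.7, 9.62 and 17.6 CPM in No-Trp livers. Neither gene's groups overlapped. Their log2 fold changes were −1.19 ± 0.25 (adjusted p = 0.0236) and −1.04 ± 0.29 (adjusted p = 0.0406).

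The other 5 genes called by adjusted p alone changed by less. In the free cytosolic subset these were Hars, for histidine (−0.83 ± 0.17, adjusted p = 0.0223), Farsa, the α subunit for phenylalanine (−0.88 ± 0.19, adjusted p = 0.0251), and Tars, for threonine (−0.55 ± 0.16, adjusted p = 0.0471). In the complex they were Kars, for lysine (−0.72 ± 0.20, adjusted p = 0.0388), and Iars, for isoleucine (−0.73 ± 0.22, adjusted p = 0.0462). Farsb, the partner subunit of Farsa, had −0.78 ± 0.24 with an adjusted p of 0.0502, just past the threshold.

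By subset, all 8 synthetases of the complex were lower, from −0.34 for Dars, which charges aspartate, to −0.73 for Iars, and 2 were called. By adjusted p, the rule of the calls by subset, 12% of all genes tested were lower. Of the 12 free cytosolic genes 10 were lower and 4 were called, from −1.07 for Vars to 0.64 for Aars. Of the scaffold genes, Aimp2 was called and Aimp1 had −0.30 (adjusted p = 0.348). Of the 16 mitochondrial genes 13 were lower and 2 were called, a share near that of all genes. The mitochondrial values ran from −3.29 for Lars2 to 0.40 for Fars2, which charges phenylalanine. Counted by mice, 19 of 38 genes had every No-Trp liver below every control liver, against 25.4% of all genes tested, and 2 had the reverse order, against 23.3%.

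Aars, which charges alanine, and Fars2 were the 2 genes of reverse order. Aars stood at 137, 210 and 148 CPM in control livers and at 233, 250 and 273 CPM in No-Trp livers, which did not overlap. Its log2 fold change was 0.64 ± 0.20 with an adjusted p of 0.0561. It was called in 2 of 14 alternative fits, whose adjusted p ranged from 0.0211 to 0.324.

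The calls rested on few libraries. Without control liver 101, control liver 103 or No-Trp liver 105, 0 of 38 genes were called, and 13, 13 and 10 were lower at an unadjusted p under 0.05. At that unadjusted p, 2433 of 14238, 2215 of 14240 and 2360 of 14441 genes were lower. By adjusted p, those fits called 0.829%, 0.00702% and 0.485% of all genes as lower. Without No-Trp liver 107, 5 genes were called by adjusted p, against 6.89% of all genes, and 0 by both thresholds, against 4.25%. Without liver 102 or 108, 10 and 12 genes were lower by adjusted p, against 12.7% and 8.79% of all genes. With the resubmission mark as a covariate 13 were, against 13.7%.

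Mice of 1 group differed across many members. Among No-Trp livers, mouse 107 had the lowest value of 27 of the 38 genes and mouse 108 the highest of 32. The median log2 difference of the members from the control mean was −0.48 in mouse 105, −0.72 in mouse 107 and −0.20 in mouse 108. Of the 12 MYC growth genes listed, such as the nucleolar protein gene Fbl, 12 were lower in No-Trp livers. By adjusted p 9 of the 12 were called, against 12% of all genes lower by that rule. The median log2 difference of these 12 from the control mean was −0.98 in mouse 105, −1.83 in mouse 107 and −0.79 in mouse 108. The 8 proliferation markers were also all lower, 6 of them called, against the same 12% of all genes. Their summed level was 405, 90.7 and 403 CPM in these mice against 1245 to 1443 CPM in control livers. The erythroid markers fell as well, 4 of 4 tested, from a sum of 48.7 to 536 CPM to 7.25 to 19.6 CPM. The globin genes Hbb-bs, Hbb-bt and Hba-a1 had 0 reads in both groups, while the erythroid marker Slc4a1 had 370 to 5577 reads in control livers. Whether the 0 of the globin genes is their level in the tissue or comes from how reads were assigned was not tested. The hepatocyte markers were higher in 11 of 11 tested, 5 of them called, against 13.3% of all genes higher by adjusted p. The part of these cell types in the members' values was not tested.

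Wars, the tryptophan enzyme, was lower in No-Trp livers by less than many members. It stood at 77.8, 77.3 and 81.6 CPM in control livers and at 62.6, 44.7 and 67.3 CPM in No-Trp livers. The groups did not overlap, but the log2 fold change of −0.42 ± 0.18 had an adjusted p of 0.122 and was not called in any of 14 alternative fits. From the highest, it ranked 18 of 38. Wars2, the mitochondrial enzyme for the same amino acid, stood at 20.2, 29.5 and 33.8 CPM in control livers and at 18.7, 20.5 and 24.7 CPM in No-Trp livers, which overlapped (−0.37 ± 0.24, adjusted p = 0.278).

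In HCC53N xenografts, the diet difference of the synthetases pointed mostly upward and no gene was called. Of the 38 genes 25 had a log2 fold change above 0, as did 49.5% of all genes, and 13 below, as did 50.5%, with a median of 0.16 against −0.0045 for all 14704 genes tested. By adjusted p, 0 of 38 were called, against 0.374% of all genes. At an unadjusted p under 0.05 there were 6 higher and 1 lower, as were 1150 and 1333 of the 14704 genes. DESeq2 called 1, Lars2, as lower, against 1.52% of the 19506 genes it tested, and 0 as higher, against 1.75%. The groups did not overlap for 8 genes that were higher, against 11.2% of all genes tested, and for 1 that was lower, against 11.3%.

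Wars had the highest log2 fold change of the 38, 0.98 ± 0.49, with an adjusted p of 0.363. It stood at 184, 107 and 75.1 CPM in control xenografts 40, 41 and 43 and at 185, 419 and 135 CPM in No-Trp xenografts 35, 36 and 37. The groups overlapped, since control xenograft 40 was level with No-Trp xenograft 35 and above No-Trp xenograft 37. Mouse 36 set much of the difference, and without it the log2 fold change was 0.37 and Wars ranked 7 of 38. With the resubmission mark as a covariate it was 0.39, rank 12 of 38. That mark is carried by 2 of the 3 control and 0 of the 3 No-Trp xenografts.

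Wars2 stood at 16.2, 18.3 and 16.4 CPM in control xenografts and at 18.6, 22.5 and 19.6 CPM in No-Trp xenografts. Its groups did not overlap, and its log2 fold change was 0.23 ± 0.18 (adjusted p = 0.553).

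The next genes in size were Nars, for asparagine (0.77 ± 0.26, adjusted p = 0.21), Gars (0.65 ± 0.21, adjusted p = 0.182), Aars (0.64 ± 0.25, adjusted p = 0.248), Iars (0.61 ± 0.23, adjusted p = 0.241) and Lars, for leucine (0.57 ± 0.21, adjusted p = 0.234). Nars stood at 205, 221 and 191 CPM in control xenografts and at 225, 503 and 341 CPM in No-Trp xenografts, and Gars at 130, 152 and 169 CPM and at 190, 314 and 218 CPM. Neither gene's groups overlapped, and in both mouse 36 was the highest. Of the 5 genes whose promoters held the C/EBP-ATF element, Aars, Gars and Iars had the values above, Yars had 0.18 ± 0.19 and Tars 0.15 ± 0.23. In livers the same 5 had 0.64 for Aars, −0.49 for Gars, −0.73 for Iars and for Yars, and −0.55 for Tars.

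By subset, 7 of the 8 genes of the complex were higher, from −0.036 for Qars, which charges glutamine, to 0.61 for Iars, and 9 of 12 free cytosolic genes were, from −0.27 for Cars, which charges cysteine, to 0.98 for Wars. Both scaffold genes were lower (Aimp1 −0.28, Aimp2 −0.27). Of the 16 mitochondrial genes 9 were higher and 7 lower, from −1.20 for Lars2 to 0.54 for Mars2. None of these passed the test.

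Xenograft 36 stood apart within its group, with the highest value of 24 of the 38 genes, while xenograft 35 had the lowest of 21. The median log2 difference of the members from the control mean was −0.032 in mouse 35, 0.42 in mouse 36 and 0.18 in mouse 37. Without mouse 36, 21 genes were higher and 17 lower, and 0 were higher at an unadjusted p under 0.05, as were 1042 of all 14959 genes tested. The same mouse had the highest level of Asns, asparagine synthetase and a target of ATF4, at 306 CPM, where mice 35 and 37 had 81.9 and 214 CPM and control xenografts 46.9 to 65.2 CPM. Adipocyte markers summed to 356 to 737 CPM in No-Trp xenografts and 11.4 to 67.0 CPM in control xenografts. Of these markers 5 of 5 were higher and 2 were called, against 0.245% of all genes higher by adjusted p. Their part in the members' values was not tested.

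**Figure D2:**
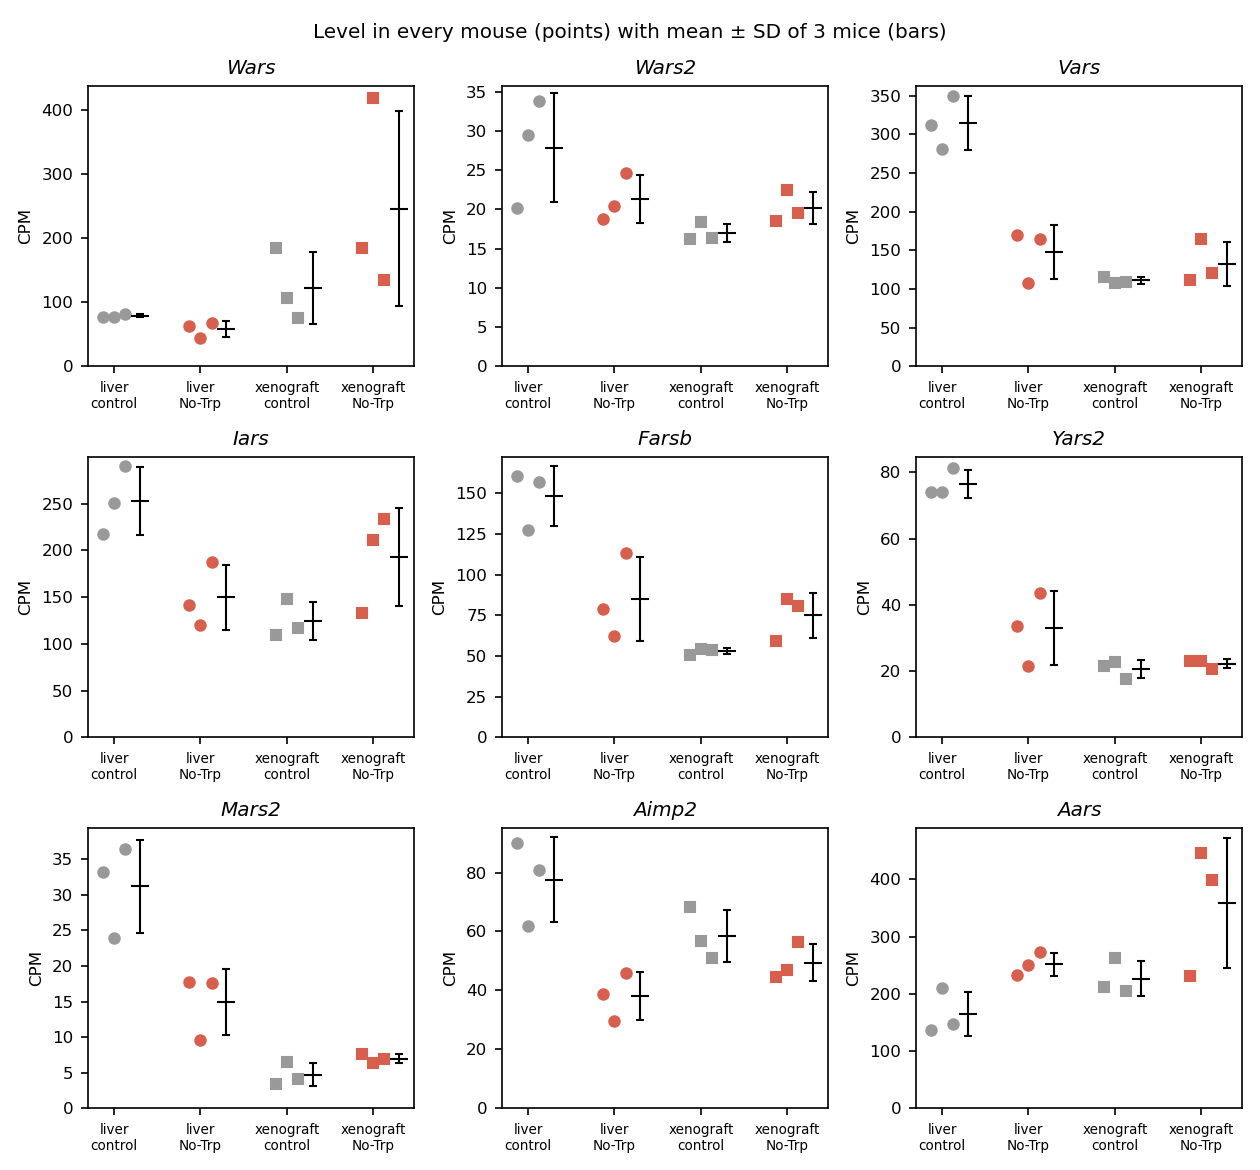
CPM (y axis) of 9 genes in each of 12 mice, by model and diet (x axis). Circles are livers, squares xenografts, and the bars are mean ± SD of 3 mice. Vars, Yars2, Mars2 and Aimp2 separate by diet in livers, and Wars in No-Trp xenografts runs from 135 to 419 CPM.

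To contrast Wars with the family in each mouse, its level in CPM, which takes no account of gene length, was divided by the median level of the other 37 genes. In livers Wars lay below the median gene in all 6 mice, with a log2 ratio of −0.75 ± 0.057 (SD, n = 3) in control mice and −0.54 ± 0.15 in No-Trp mice. In xenografts the ratio was 1.37, 0.27 and −0.21 in control mice 40, 41 and 43, and 1.30, 2.30 and 0.41 in No-Trp mice 35, 36 and 37. By this measure 5 of 6 xenografts had Wars above the median gene, as against 0 of 6 livers. The median includes the mitochondrial genes, which were lower in xenografts. The diet difference of this ratio was 0.21 in livers, where the pooled SD between mice was 0.11, and 0.86 in xenografts, where it was 0.88. In xenografts it fell to 0.38 without mouse 36 and rose to 1.32 without mouse 37.

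Against the median of the other 19 cytosolic genes alone, a measure chosen after the data were seen, Wars lay above the median in 3 of 6 xenografts and 0 of 6 livers. The log2 ratio was 0.51, −0.52 and −1.08 in control xenografts 40, 41 and 43, and 0.47, 0.98 and −0.46 in No-Trp xenografts 35, 36 and 37. The diets overlapped, with a difference of 0.69, where the pooled SD between mice was 0.77. In livers the difference was 0.038, below the pooled SD of 0.086.

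**Figure D3:**
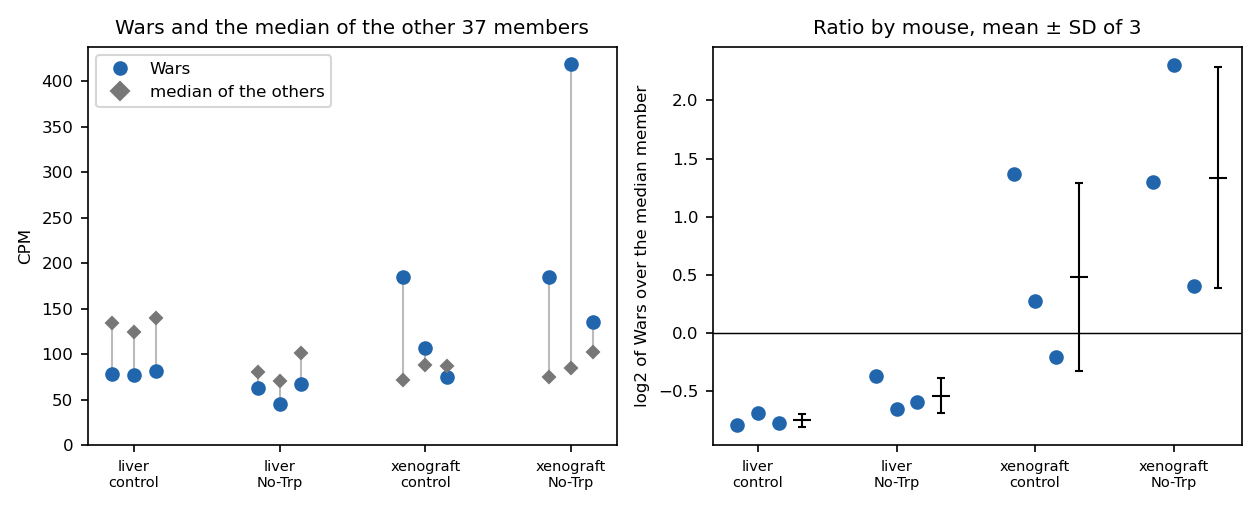
Left, CPM (y axis) of Wars (circles) and of the median of the other 37 genes (diamonds) in each mouse, joined by a line, by group (x axis). Right, log2 of their ratio in each mouse with mean ± SD of 3 mice. Wars is below the median gene in 6 of 6 livers and above it in 5 of 6 xenografts, or in 3 of 6 when set against the cytosolic genes alone, which is not drawn.

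The diet difference was then compared between the models in 1 fit over all 12 libraries and 15472 genes, as the difference in xenografts minus that in livers. It was above 0 for 35 of the 38 genes (51.7% of all genes) and below 0 for 3 (48.3%), with a median of 0.72 against 0.034 for all genes. By adjusted p 7 were higher and 0 lower, against 8.25% and 7.39% of all genes, and 5 were also at or above a log2 value of 1, against 6.7%, with 0 at or below −1, against 6.01%. Of the 33 genes lower in livers, 22 were higher in xenografts and 11 lower.

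The 7 genes were Vars, Farsb, Iars, Mars, Hars, Yars2 and Mars2. Vars had 1.33 ± 0.28 (adjusted p = 0.0132), with 116, 108 and 109 CPM in control and 111, 165 and 121 CPM in No-Trp xenografts, which overlapped. Iars had 1.37 ± 0.33 (adjusted p = 0.0206). It stood at 218, 250 and 291 CPM in control livers, at 142, 120 and 188 CPM in No-Trp livers, at 109, 148 and 116 CPM in control xenografts and at 133, 212 and 234 CPM in No-Trp xenografts. Its groups did not overlap in livers and overlapped in xenografts.

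Farsb had 1.29 ± 0.30 (adjusted p = 0.0184). It stood at 161, 127 and 157 CPM in control livers, at 78.7, 62.6 and 113 CPM in No-Trp livers, at 50.8, 54.5 and 53.6 CPM in control xenografts and at 59.3, 84.9 and 80.9 CPM in No-Trp xenografts. It was the only one of the 7 genes whose diet groups did not overlap in either model, lower in livers and higher in xenografts. Mars, which charges methionine in the cytosol, had 0.87 ± 0.24 (adjusted p = 0.0318) and Hars 0.81 ± 0.23 (adjusted p = 0.0365).

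Mars stood at 134, 124 and 139 CPM in control livers, at 85.9, 87.1 and 108 CPM in No-Trp livers, at 71.5, 96.6 and 86.6 CPM in control xenografts and at 96.2, 135 and 102 CPM in No-Trp xenografts. Hars stood at 161, 140 and 163 CPM in control livers, at 85.9, 72.5 and 99.5 CPM in No-Trp livers, at 97.5, 91.3 and 108 CPM in control xenografts and at 80.0, 108 and 104 CPM in No-Trp xenografts. In both genes the diets were apart in livers and overlapped in xenografts. Mars overlaps the stress response gene Ddit3 on the other strand and Hars overlaps Hars2, and the strand setting of the counting was not given in the sources used here.

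Among the mitochondrial genes, Yars2 had 1.30 ± 0.31 (adjusted p = 0.0189) and Mars2 1.60 ± 0.43 (adjusted p = 0.0285). In xenografts Yars2 stood at 21.5, 22.9 and 17.7 CPM on the control diet and at 23.1, 22.9 and 20.7 CPM on the No-Trp diet, so the diets overlapped at a level below that of 5 of the 6 livers. Mars2 stood at 3.42, 6.56 and 4.19 CPM and at 7.65, 6.35 and 6.94 CPM, which overlapped too. In xenografts alone the 7 genes had log2 fold changes from −0.046 for Hars to 0.61 for Iars, and 0 of them were called.

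Wars had 1.43 ± 0.56 in this fit (adjusted p = 0.101), above 6 of the 7 called genes in size but with a larger error, and was called in none of 19 alternative fits. Wars2 had 0.62 ± 0.29 (adjusted p = 0.166). Leaving out a library changed the number called by both thresholds. It was 2 without control liver 103, against 2.97% of all genes, and 10 without No-Trp liver 108, against 7.54%. It was 8 without control liver 102 or No-Trp xenograft 35, against 7.48% and 5.15%. Vars and Farsb were called in all 19 alternative fits, Yars2 and Iars in 18, Mars2 in 13, Mars in 12 and Hars in 10.

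Lars2, which charges leucine in mitochondria, had the largest diet differences in size of the 38 in both models. It stood at 11564, 2268 and 488 CPM in control livers 101, 102 and 103 and at 352, 408 and 678 CPM in No-Trp livers, which overlapped (−3.29 ± 1.07, adjusted p = 0.0604). In xenografts it stood at 773, 481 and 728 CPM on the control diet and at 278, 273 and 323 CPM on the No-Trp diet, which did not overlap (−1.20 ± 0.21, adjusted p = 0.0506). It was called in 4 of 13 alternative fits there, with adjusted p from 5.56e-05 to 0.514.

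Rn45s, the gene of the ribosomal RNA precursor, was looked at after these values were seen. Its level was 7.40 to 11.5 times that of Lars2 in all 12 libraries, while Lars2 itself varied 42.4-fold. In control liver 101 Rn45s took 12.1% of all reads on genes and Lars2 1.05%, as against 0.261% and 0.028% in No-Trp liver 107. The 15 mitochondrial genes other than Lars2 summed to 723 to 794 CPM in control livers, where Lars2 had its widest spread. The RNA genes Rmrp and Rpph1, also looked at after values were seen, had 2011 and 1962 reads in control liver 101. They had 223 and 203 reads in control liver 102, 18 and 19 in control liver 103, and 8 to 30 and 2 to 15 in No-Trp livers. The part of reads from ribosomal RNA in the count of Lars2 was not tested. When Rn45s and Lars2 were left out of the counts, an alternative chosen after the data were seen, 10 of the other 37 genes were lower in No-Trp livers by adjusted p. By both thresholds 4 were lower, and the shares of all genes were 12.3% and 7.37%.

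**Figure D4:**
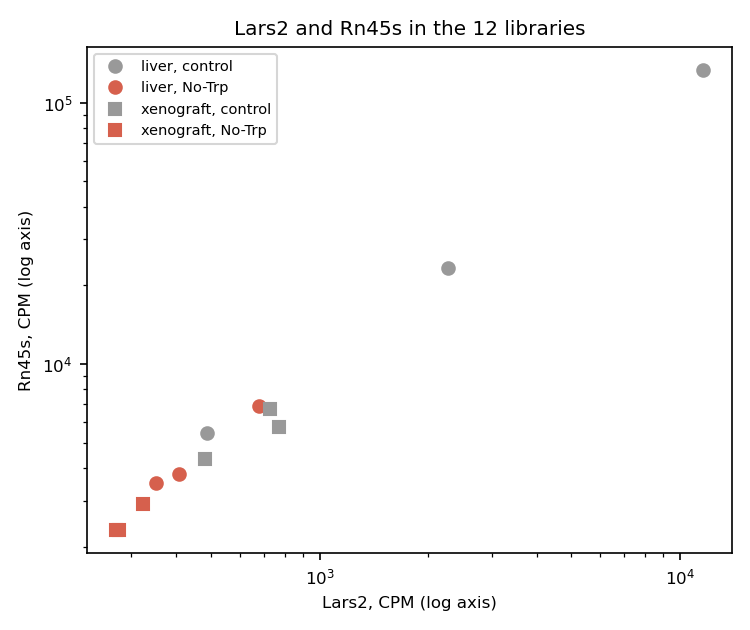
CPM of Rn45s (y axis, log scale) against CPM of Lars2 (x axis, log scale) in the 12 libraries, by model and diet. The 2 genes rise together over the whole range, with Rn45s at 7.40 to 11.5 times Lars2 in each library.

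Xenografts and MYC-ON livers were also compared within each diet. The models differ at once in sex, strain, site, host, tumor genotype, growth as a cell line and cell of origin, and these cannot be told apart. On the control diet most members were lower in xenografts. By adjusted p 28 of 38 were lower and 1, Cars, was higher, against 28.7% and 30.8% of all genes tested, and by both thresholds 16 were lower and 1 higher, against 20.2% and 23.3%. All 16 mitochondrial genes were called lower, from −0.48 ± 0.19 for Vars2, which charges valine, to −2.85 ± 0.83 for Lars2. Lars2 overlapped between the models, and without control liver 101 it had −1.06 (adjusted p = 0.0992). Vars2 was called in 10 of 19 alternative fits, with adjusted p from 0.0232 to 0.264, and lost its call without control liver 102 or 103, No-Trp liver 105, control xenograft 40 or 41 or No-Trp xenograft 35, at values of −0.43 to −0.48. Of the 12 free cytosolic genes 7 were lower and of the 8 genes of the complex 5 were, led by Eprs, the double enzyme for glutamate and proline (−1.53 ± 0.18, adjusted p = 1.4e-05). Cars had 1.14 ± 0.24 (adjusted p = 0.00161), and Wars, next in rank, had 0.63 ± 0.39 (adjusted p = 0.188), and 0.20 without control xenograft 40. The models did not overlap for 27 lower and 2 higher members, against 31.8% and 33.3% of all genes.

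On the No-Trp diet the picture split by subset. By adjusted p 5 members were higher and 13 lower, against 33.2% and 26.4% of all genes, and by both thresholds 3 and 5, against 24.5% and 19.1%. The models did not overlap for 5 higher and 11 lower members, against 37.8% and 29.1%. The 5 higher genes were all listed as cytosolic, and 12 of the 13 lower genes as mitochondrial. Kars is among the 5, and the 38 genes hold no separate mitochondrial gene for lysine. Wars was the highest of the 38, at 2.06 ± 0.41 (adjusted p = 0.00104), and every No-Trp xenograft, at 135 to 419 CPM, lay above every No-Trp liver, at 44.7 to 67.3 CPM. It remained the highest without any 1 of the 12 libraries, with 1.45 when xenograft 36 was left out. Cars had 1.20 ± 0.24 (adjusted p = 0.0011), Rars, for arginine, 1.18 ± 0.26 (adjusted p = 0.00217), Tars 0.87 ± 0.21 (adjusted p = 0.00385) and Kars 0.82 ± 0.24 (adjusted p = 0.0097), which was 0.51 (adjusted p = 0.0529) without No-Trp xenograft 37. Eprs was the 1 cytosolic gene called lower, at −0.80 ± 0.17 (adjusted p = 0.00176). The split depended on scaling, since library totals without composition factors moved the median of all genes from 0.15 to 0.68 and gave 16 members higher and 3 lower, against 48.5% and 16.4% of all genes, with Eprs at −0.27 (adjusted p = 0.264).

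**Figure D5:**
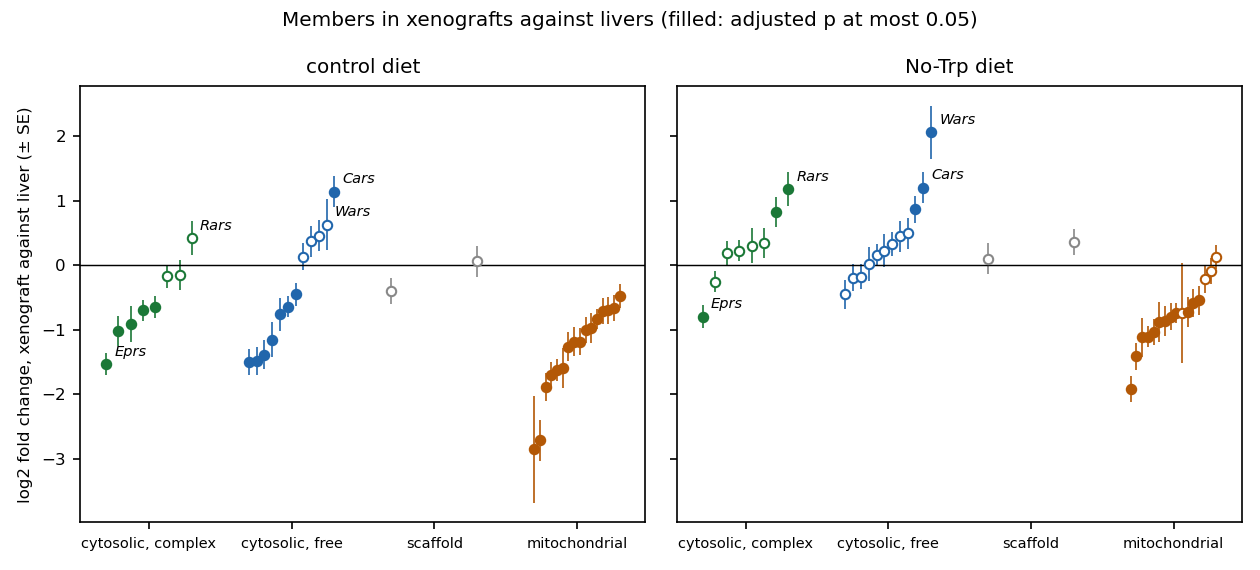
Log2 fold change of xenografts against livers (y axis) for the 38 genes by subset (x axis), on the control diet (left) and the No-Trp diet (right), from edgeR with 3 mice per group. Bars are standard errors and filled points have an adjusted p of at most 0.05. The mitochondrial genes lie below 0 on both diets, with Vars2 at 0.13 on the No-Trp diet as the exception, and Wars is the highest point on the right.

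Compared per length, as CPM per kilobase of the longest coding transcript with a RefSeq match, Wars was among the lower cytosolic members in control livers, at 27.9 ± 0.84 (SD, n = 3). Cars was at 26.3 ± 2.78 and Aars at 28.7 ± 6.78, values that do not differ from that of Wars beyond their spread. The highest were Kars at 145 ± 20.1, Gars at 141 ± 23.1 and Nars at 127 ± 13.1, which do not differ among themselves beyond it either. Mitochondrial genes other than Lars2 ran from 2.76 ± 0.574 for Mars2 to 48.6 ± 2.71 for Yars2, and Wars2 was at 6.31 ± 1.57. In No-Trp xenografts Wars reached 87.0 ± 53.5, a spread that took in the 62.4 ± 19.7 of Aars, the 101 ± 27.4 of Gars and the 130 ± 50.9 of Nars. Which transcripts were used was not measured, and for long models such as that of Mars2 the value per length depends on that choice.

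Of the genes related to charging that are not members (21 listed, 20 tested), such as Dtd1, which edits D-aminoacyl-tRNA, 1 was higher and 3 lower in No-Trp livers by adjusted p, where 13.3% and 12% of all genes were, and 0 were called in xenografts. Dtd1 had −1.10 ± 0.25 in livers (adjusted p = 0.0266) and was not called without liver 101, 103 or 105, at −1.04 to −1.25. Of the 18 genes of the amino acid response 5 were called higher and 0 lower in No-Trp livers, against the same 13.3% and 12% of all genes. The list did not point 1 way there, since 9 of the 18 had a log2 fold change above 0 and 9 below. The values ran from −1.70 to 3.42 with a median of 0.20. In xenografts 0 of the 18 were called. Atf4 itself had −0.45 ± 0.25 in livers (adjusted p = 0.213) and −0.40 ± 0.27 in xenografts (adjusted p = 0.498). Asns fell outside the calls in both models, with −1.08 ± 0.45 in livers (adjusted p = 0.116) and 1.82 ± 0.44 in xenografts (adjusted p = 0.132), and its difference between the models was 2.92 ± 0.69 (adjusted p = 0.0205).

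Trib3, a pseudokinase gene and ATF4 target, had 2.50 ± 0.65 in livers (adjusted p = 0.0357), with 13.9, 8.05 and 10.6 CPM on the control diet and 26.7, 29.7 and 126 CPM on the No-Trp diet, which did not overlap. Mouse 108 set much of the value, and without it the log2 fold change was 1.40 (adjusted p = 0.0346). Without any other 1 of the livers Trib3 was not called, with adjusted p from 0.0515 to 0.112. Sesn2, which senses leucine, had 1.30 ± 0.22 in livers (adjusted p = 0.0178) and was not called without liver 101 or 103, at 1.27 and 1.42. The 11 cytosolic synthetases listed as ATF4 targets, Wars included, had a median of −0.42 in livers, with 9 of 11 below 0 and 2 of these called, against 12% of all genes. In xenografts their median was 0.36, with 10 of 11 above 0 and 0 called. Of 22 interferon-response genes, 3 were called higher in No-Trp livers, a share near the 13.3% of all genes, and 0 were called in xenografts.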

How the data were processed

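The authors trimmed reads with Trim Galore, aligned them to mm10 with STAR (version 2.7.2b per the submitters' processing notes) and counted them on genes with HTSeq. The deposited values are raw counts per gene and library, with no normalization. Reads left off genes, 24.7% to 39.4%, stayed out of library sizes. Columns of other samples were 0. Members and lists were chosen with earlier results of these data known. Tests of counts used edgeR 4.0.16 under R 4.3.3 (filterByExpr, TMM scaling, robust quasi-likelihood fit, Benjamini-Hochberg adjustment over all genes tested). Diet was fitted within each model, and the difference between diets and the models in 1 fit of 4 groups. CPM are on 1 TMM scale over the 12 libraries. Differences in single mice are of log2(CPM + 0.5). Each library is a separate mouse and none were duplicates. Alternatives were RLE factors, library totals, DESeq2 1.42.0, other count filters, the resubmission mark as a covariate, leaving out each library, and no fold threshold. The fits were tested on simulated data.

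Values were given by mouse for Wars, Wars2, genes called at both thresholds in a diet comparison and genes called in the test of the difference between the diet effects of the models. The largest and smallest member of each subset was named, and of other lists Atf4, Asns and up to 4 genes of small p, and 1 further gene of the rule is not reported here. The values by mouse of Aars, Nars, Gars, Lars2, Rn45s, Rmrp, Rpph1, Asns and Trib3 were chosen after values were seen. So were Fbl and the genes named between the models or per length. Of the 38 members, 13 overlap another coding gene in GENCODE M21, among them Wars, Aars, Farsb, Mars, Hars and Aimp2, and the strand setting and rule for overlaps in counting are not given in the sources used here, so their counts may hold reads of the partner. The same build, GRCm38, was used for promoter positions. At the lowest member count, 69 reads, counting error is small beside the spread between mice.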

Additional observations from a re-analysis of the deposited data

Results flagged for a closer look

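For 7 genes the diet difference was not the same in HCC53N xenografts as in MYC-ON livers by the test of that difference (edgeR, 12 libraries, adjusted p at most 0.05). In log2 units, xenografts minus livers, the values were 1.33 for Vars, 1.29 for Farsb, 1.30 for Yars2, 1.37 for Iars, 1.60 for Mars2, 0.87 for Mars and 0.81 for Hars. In livers all 7 had values below 0, from −0.48 for Mars to −1.19 for Yars2, and in xenografts 6 had values above 0 and Hars had −0.046. In this fit the lymphocyte, endothelial, fibroblast and macrophage markers had 0, 1, 1 and 1 genes higher by adjusted p. The erythroid, adipocyte and proliferation markers had 3, 4 and 8 higher, and the hepatocyte and cholangiocyte markers 4 and 1 lower. Of all genes 8.25% were higher and 7.39% lower. The part of these markers in the 7 values was not tested. The 12 MYC growth genes listed were all above 0, with a median of 1.19. Of these 7 were called higher, against 8.25% of all genes, and their part was not tested either.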

How the results depend on the processing

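No paired analysis was possible because no 2 groups share mouse numbers. The number of members called by both thresholds in livers was 4, all lower, against 7.27% of all genes. It was 10 with library totals, against 10.8%, and 9 with no fold threshold, against 12%. When a library was left out it was 0 to 5, against 0.00702% to 8.66%. In xenografts the number was 0, against 0.116% of all genes lower and 0.245% higher. It was 1 with DESeq2, RLE factors or no low-count filter, Lars2 each time, against 0.666%, 0.177% and 0.23% lower. Without a library it was 0 to 1, against 0.0133% to 0.285% lower. For the difference between the models the number was 5, all higher, against 6.7% of all genes. It was 16 with library totals, against 11.8%, and 10 with the resubmission covariate, against 7.07%. Without a library it was 2 to 10, against 2.97% to 7.54%. Between the models it was 17 on the control diet (29 with no fold threshold) and 8 on the No-Trp diet (18 with no fold threshold). The shares of all genes for these counts are given above. Library totals moved the median of all genes by −0.29 in livers and 0.37 in the difference between models. Library totals cannot move the Wars ratio, since the scaling of a library cancels in it, so that alternative says nothing about it. Without a library the diet difference of the ratio moved by less than the pooled SD between mice. In xenografts that SD, 0.88, was larger than the difference of 0.86 itself, so a move below it says little there. The diet difference of the ratio ran from 0.13 to 0.27 in livers and from 0.38 to 1.32 in xenografts. Against the other cytosolic genes, an alternative chosen after the data were seen, it was 0.038 in livers and 0.69 in xenografts. In livers this is below 0.21 by more than the pooled SD of 0.11. Of 69 values of named genes, 64 kept their direction under every alternative. In xenografts Hars had 0.056 with library totals and −0.12 to 0.093 without a library, Qars 0.064 with library totals, 0.057 with the resubmission covariate and −0.28 to 0.091 without a library, Tars −0.15 to 0.31 and Yars2 −0.015 to 0.16 without a library. Vars2 had −0.035 to 0.25 without a library between the models on the No-Trp diet. No member called in any of the 5 comparisons changed direction. The cause of these moves was not tested, other than that fits without a library hold fewer mice. Leaving out Rn45s and Lars2 was also chosen after the data were seen and moved no such count by over 1.5 times. With 3 mice per group, a p that misses the threshold does not show that values are equal.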
